A study of Mus musculus with 54 samples.

Results

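The genes described here act in the G2 phase and in mitosis: cyclins and kinases that start division, spindle motors, centromere and checkpoint proteins, and the proteins that split the daughter cells. The set was chosen by name from a list of 36 mitotic G2/M genes, and 35 of them, out of 19936 genes measured, had a gene-level probe set with exactly 1 symbol. Ccnb1, which encodes cyclin B1, had no such probe set and enters only the promoter counts. Top2a had 2 probe sets, of which the brighter was used. All 35 had a mean above that of the median gene, so a filter on dim genes removed none of them.

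RNA was measured in Ba/F3-gp130 cells, a mouse pro-B line that carries gp130 and depends on Hyper-IL-6, on 27 Affymetrix arrays in 9 groups of 3. Hyper-IL-6 joins the cytokine interleukin-6 to the soluble form of its receptor and so activates gp130 directly. The lines were untransfected cells and 3 lines labelled CIR-1, CIR-2 and CIR-3 after the cargo internalization receptor constructs they carry. Each line was left unstimulated or given an emulsion labelled GFP-PFC, 50 µl in 1 ml of medium for 1 h, and untransfected cells alone were also given 100 ng/ml Hyper-IL-6 for 1 h. All cells had grown in 10 ng/ml Hyper-IL-6, were washed 4 times in PBS and then kept in serum-free medium for 3 h, so the unstimulated groups share that withdrawal. The labels number unstimulated arrays 1, 3 and 5 and stimulated arrays 2, 4 and 6. They do not say what a number stands for, whether arrays came from separate cultures, or whether a CIR line is a clone or a pool. The p-values therefore measure the spread between these arrays, which may be technical.

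Division starts when cyclin B with Cdk1, released by Cdc25 phosphatases, drives the cell into mitosis. Kinases such as Plk1 and the Auroras then build the spindle, and the checkpoint kinases hold the cell until Cdc20 and Ube2c direct the destruction of cyclins by the anaphase-promoting complex. Most of these genes are switched on together late in the cycle, through CHR and CCAAT elements in their promoters that bind the MuvB complexes with B-MYB, FOXM1 and NF-Y. Their transcripts are therefore a usual read-out of how many cells of a culture are dividing.

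Promoter letters are shown first, because the list was chosen by name and these are a feature that many of its genes share. RefSeq promoter windows (GRCm38.p6, 250 bases before to 50 after a transcription start) were matched by symbol for 30 of the 36 listed genes, in 32 windows. Ccnb1, which is not among the 35 measured members, is among these 30. Aurkb, Ccna2, Cdc25c, Dlgap5, Kif20a and Tpx2 were not matched. The CHR letters TTTGAA were in a window of 22 of these 30 genes (73.3%) and of 20.2% of all 27025 genes in the table, counting both strands. CCAAT was found for 24 of 30 (80%) and for 41.1% of all genes, and both motifs together for 19 of 30 (63.3%) and 7.97%. The variant TTTAAA was found for 9 of 30 (30%) and for 14.9% of all genes. TTTGAA and TTTAAA cannot match at the same bases of 1 strand, matches of different motifs may share bases at their ends, and a match is a description of these letters, not of binding. Below are the 120 bases before the start, 5′ to 3′ on the gene's own strand, for the 5 members, of those named in every comparison, in which both motifs lay whole in that stretch. Capitals mark TTTGAA or its reverse complement TTCAAA, and CCAAT or its reverse complement ATTGG. The positions are chr10:69352913-69353032 for Cdk1, chr4:118437344-118437463 for Cdc20, chr11:99024190-99024309 for Top2a and chr3:27153879-27153998 for Ect2, all on the minus strand, and chr19:37376262-37376381 on the plus strand for Kif11.
Cdk1: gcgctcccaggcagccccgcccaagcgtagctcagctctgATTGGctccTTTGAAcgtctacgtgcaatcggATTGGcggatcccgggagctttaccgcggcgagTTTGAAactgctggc
Cdc20: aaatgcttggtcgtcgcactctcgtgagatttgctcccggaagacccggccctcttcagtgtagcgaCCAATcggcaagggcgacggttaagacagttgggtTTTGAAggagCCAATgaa
Kif11: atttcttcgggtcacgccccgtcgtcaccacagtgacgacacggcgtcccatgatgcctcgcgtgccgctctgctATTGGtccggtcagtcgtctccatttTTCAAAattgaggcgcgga
Top2a: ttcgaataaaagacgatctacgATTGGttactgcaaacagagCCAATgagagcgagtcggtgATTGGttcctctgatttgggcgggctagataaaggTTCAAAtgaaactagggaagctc
Ect2: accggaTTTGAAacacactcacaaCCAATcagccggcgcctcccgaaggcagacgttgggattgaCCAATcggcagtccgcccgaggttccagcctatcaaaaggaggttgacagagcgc
Cdk1 holds 2 copies of each motif in this stretch, Top2a holds 3 CCAAT copies with 1 CHR, and Kif11 holds 1 of each.

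Array medians over all probe sets ran from 7.52 to 7.65, and correlations between arrays across genes from 0.9912 to 0.9990. Over the 19936 genes the medians ran from 7.77 to 7.98 and the interquartile ranges from 3.47 to 3.84. Without Hyper-IL-6, these medians lay between 7.77 and 7.91 on the arrays numbered 1 and 2. On the later arrays they lay between 7.83 and 7.98. Of 9 pro-B markers, the B-cell receptor parts Cd79a and Cd79b lay above the median of their arrays, while Pax5, Vpreb1 and Igll1 lay below it and Ebf1, Rag1, Blnk and Il7r lay below the lower quartile. Of the other lists, 4 of 5 erythroid and megakaryocyte markers (Gata1, Klf1, Epor and Itga2b, not Pf4), 2 of 6 myeloid markers (Mpo and Elane, not Csf1r, Cd14, Adgre1 or Lyz2), 2 of 6 mast cell and basophil markers (Ms4a2 and Hdc, not Kit, Fcer1a, Cpa3 or Mcpt8) and 0 of 4 T cell markers lay above the median gene by this mean. Single arrays could differ from it: Fcer1a ran from 4.75 to 9.98, Ms4a2 from 7.26 to 9.27 and Hdc from 7.29 to 8.98. Values below are log2 signals, differences are on the log2 scale, and adjusted p values are from limma with Benjamini-Hochberg adjustment over 19936 genes at a threshold of 0.05.

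Hyper-IL-6 given for 1 h to untransfected cells changed 0 of 35 members in limma, against 0.772% of all genes, and 1 member had an unadjusted p under 0.05. The differences from unstimulated cells ran from −0.17 for Aurka to 0.13 for Mki67, with a median of −0.047 against −0.013 over all genes. The 95% intervals of the 35 differences reached from −0.49 to 0.54. Plk1, the kinase that matures centrosomes and drives exit, had the smallest p. Its 3 Hyper-IL-6 arrays read 12.60, 12.50 and 12.47 and its unstimulated arrays 12.72, 12.64 and 12.58, which overlap, and it differed by −0.12 (SE 0.058, adjusted p = 0.739, n = 3 in each group). Aurka, the spindle-pole kinase, read 11.40, 11.18 and 11.19 against 11.56, 11.45 and 11.26, again with overlap (difference −0.17, SE 0.097, adjusted p = 0.856).

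Other members lay on either side of 0 after Hyper-IL-6, and none of those named here passed. Mki67, the proliferation antigen that coats chromosomes, read 12.91, 13.06 and 13.05 after Hyper-IL-6 and 12.91, 12.88 and 12.85 without it, and Ect2, which activates RhoA at the division plane, read 11.96, 11.97 and 11.84 against 11.80, 11.85 and 11.87. Their differences were 0.13 (SE 0.095, adjusted p = 0.954) and 0.086 (SE 0.058, adjusted p = 0.932). Cdc20, the activator of the anaphase-promoting complex, differed by −0.11 (SE 0.075, adjusted p = 0.941) and Ccnf, a cyclin that forms a ubiquitin ligase, by −0.091 (SE 0.064, adjusted p = 0.947). Both overlapped between the groups, with Cdc20 at 11.54, 11.40 and 11.53 against 11.73, 11.61 and 11.45 without Hyper-IL-6. The remaining members named throughout, given by role, differed by 0.0 for Cdk1, −0.0090 for Aurkb, −0.097 for Bub1, 0.049 for Cenpe, −0.027 for Top2a and −0.050 for Kif11, each at an adjusted p of 1.

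Without the arrays numbered 1 and 2, 2 of 35 members were higher after Hyper-IL-6, against 18.4% of all genes: Cenpe, the motor that carries chromosomes to the spindle equator, by 0.30 (SE 0.09, adjusted p = 0.0332), and the motor Kif20b by 0.21 (SE 0.07, adjusted p = 0.0479). The median member difference was then 0.035. With array weights 1 member, Ccnf, was lower by 0.16 (adjusted p = 0.0355), against 17.4% of all genes. Against GFP-PFC in the same cells, Hyper-IL-6 changed 0 of 35 members (0.507% of all genes, 0 members at an unadjusted p under 0.05), with differences from −0.19 for Aurka to 0.093 for Mki67. Array weights gave 4 members lower there (9.68% of all genes), namely Aurka by 0.26, Cdc25c by 0.21, Ube2c by 0.15 and Plk1 by 0.14. The 2 Hyper-IL-6 comparisons share their Hyper-IL-6 arrays.

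Of 59 other G2/M genes 0 were called and of 34 DNA replication and G1/S genes 0 were called after Hyper-IL-6 in limma, with 2 and 1 at an unadjusted p under 0.05. Foxm1 and Mybl2, which encode the 2 activators named above, differed by −0.013 (SE 0.061) and 0.052 (SE 0.18). Of 14 D cyclins and CDK inhibitors 1 was higher, Cdkn2d, which encodes the inhibitor p19 of Cdk4 and Cdk6, by 2.07 (SE 0.16, adjusted p = 1.98e-08).

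GFP-PFC changed 0 of 35 members as the mean over the 4 lines in limma (0.221% of all genes), and 0 had an unadjusted p under 0.05. The differences lay between −0.066 for Ccnf and 0.057 for Plk4, the kinase that duplicates centrioles, and their 95% intervals between −0.244 and 0.247. The median was −0.006. Ccnf had the smallest p (SE 0.032, adjusted p = 0.799), followed by Kif2c at −0.038 (SE 0.025), Kif20a at −0.055 (SE 0.039), Cdc20 at −0.050 (SE 0.037) and Kif11 at −0.059 (SE 0.049). Of the members named throughout, Plk1 differed by −0.019, Ect2 by 0.016, Bub1 by 0.031, Cdk1 by 0.012, Aurka by 0.0090, Aurkb by −0.0060, and Mki67, Top2a and Cenpe by 0.0010, −0.0010 and 0.0010.

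Within single lines GFP-PFC again changed 0 of 35 members each in limma, where 0 of all 19936 genes passed and 0 members had an unadjusted p under 0.05. Member medians were 0.016 for untransfected cells, −0.015 for CIR-1, 0 for CIR-2 and −0.028 for CIR-3. The test of whether the GFP-PFC difference varied among the 4 lines also called 0 members, at the adjusted and at the unadjusted threshold, and 0 of all genes.

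**Figure D1:**
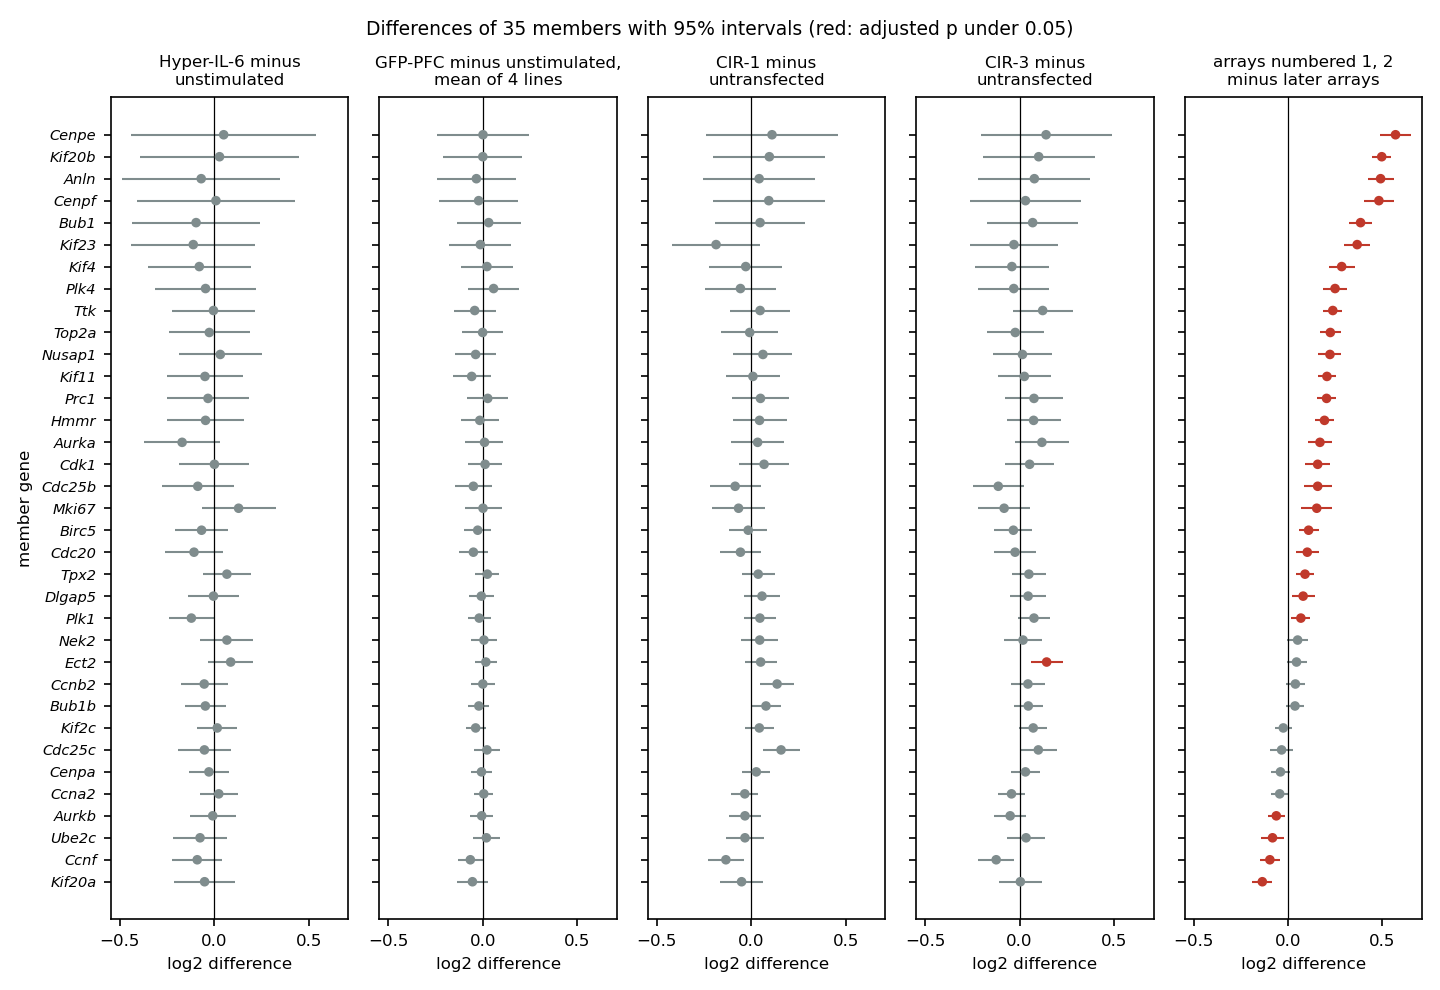
Log2 differences of the 35 members (rows) with 95% intervals in 5 comparisons (panels), ordered by the difference between arrays numbered 1 and 2 and later arrays. Members with an adjusted p under 0.05 are red: 0 for Hyper-IL-6, GFP-PFC and CIR-1, 1 for CIR-3 (Ect2) and 27 for the array numbers.

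Between lines, Ect2 was the 1 member called. In CIR-3 it read 12.08, 12.00 and 11.99 unstimulated and 12.02, 12.00 and 11.99 with GFP-PFC, and in untransfected cells 11.80, 11.85 and 11.87 unstimulated and 11.90, 11.90 and 11.92 with GFP-PFC. All 6 CIR-3 arrays lay above all 6 untransfected arrays, as for 2.35% of all genes. The difference over both conditions was 0.14 (SE 0.041, 95% interval 0.058 to 0.227, adjusted p = 0.0489), a 1.10-fold higher level, and 1 of 35 members called compares with 4.20% of all genes in either direction and 3.10% higher. The call sat at the threshold: it ended when any 1 of the 12 arrays was left out (adjusted p 0.0509 to 0.129, difference 0.13 to 0.15), with quantile normalization (0.11, adjusted p = 0.138), when only the 12 compared arrays were fitted (adjusted p = 0.134) and without the arrays numbered 1 and 2 (0.11, adjusted p = 0.0909). With number pairs as a replicate block it held (adjusted p = 0.0138, 8.28% of all genes called).

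In CIR-1, 0 of 35 members passed in limma (4.92% of all genes) and 4 had an unadjusted p under 0.05. Cdc25c, a phosphatase that releases Cdk1, lay between 9.86 and 10.02 over the 6 CIR-1 arrays (median 9.95) and between 9.70 and 9.95 over the 6 untransfected arrays (median 9.77). The ranges overlap and the difference was 0.16 (SE 0.048, adjusted p = 0.0556). Ccnb2, which encodes cyclin B2, lay between 12.98 and 13.11 against 12.87 and 13.01 (difference 0.14, SE 0.042, adjusted p = 0.0678). Ccnf lay between 11.63 and 11.84 against 11.79 and 11.99 (difference −0.13, SE 0.046, adjusted p = 0.111). With the replicate block 4 members passed, against 8.30% of all genes: Cdc25c (adjusted p = 0.0203), Ccnb2 (0.0118) and Ccnf (0.0316) at the same differences, and Kif23, a motor of the central spindle, at −0.19 (SE 0.056, adjusted p = 0.0408).

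In CIR-2, 0 of 35 members passed in limma (3.80% of all genes) and 1 had an unadjusted p under 0.05. That member was Ccnf, between 11.70 and 11.84 over the 6 CIR-2 arrays (difference −0.15, SE 0.046, adjusted p = 0.0648). The highest CIR-2 array was above the lowest untransfected array, at 11.79. With the replicate block Ccnf passed (adjusted p = 0.0152, 1 of 35 members against 6.67% of all genes). In CIR-3 Ccnf lay between 11.65 and 11.91 and differed by −0.12 (SE 0.046, adjusted p = 0.151). The 3 line comparisons share the untransfected arrays, so the like values of Ccnf are not independent of each other.

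The test among all 4 lines called Ect2 alone (adjusted p = 0.0442, 1 of 35 members against 7.42% of all genes), and with the replicate block Ect2 (0.0109), Ccnf (0.0252) and Ccnb2 (0.0393), 3 of 35 against 13.5%. With the block and without the Hyper-IL-6 arrays, which do not share the pairing, 8 of 35 passed among lines against 18.3% of all genes: Ect2, Ccnf, Ccnb2, Cdc25c, Kif23, Ttk, Kif2c and Kif20b. That fit called 4 members in CIR-1 (10.6%), Ccnf alone in CIR-2 (8.76%), and Ccnf, Ect2 and Ttk in CIR-3 (11.6%). Array weights gave 2 members for CIR-1 (8.67% of all genes), 1 for CIR-2 (9.52%), 3 for CIR-3 (21.3%) and 4 among lines (22.2%). Without the arrays numbered 1 and 2, Ccnf passed in CIR-2 (5.63%) and among lines (17.9%), and Ccnf and Ttk passed in CIR-3 (20.9%). Member medians were 0.042 for CIR-1, −0.004 for CIR-2 and 0.034 for CIR-3. The other members named throughout were not called in any line. In CIR-1, CIR-2 and CIR-3 in turn, Plk1 differed from untransfected cells by 0.046, 0.024 and 0.076, Aurka by 0.034, 0.058 and 0.12, and Aurkb by −0.033, −0.071 and −0.050. Cdk1 differed by 0.068, 0.039 and 0.053, Cdc20 by −0.057, −0.077 and −0.024, and Bub1 by 0.047, −0.0040 and 0.069. Mki67 differed by −0.067, −0.12 and −0.082, Cenpe by 0.11, 0.066 and 0.14, Top2a by −0.0080, −0.034 and −0.023, and Kif11 by 0.0090, 0.045 and 0.025. The lowest adjusted p among these was 0.369, for Plk1 in CIR-3. Levels of whole-culture RNA cannot tell fewer dividing cells from less RNA in each.

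**Figure D2:**
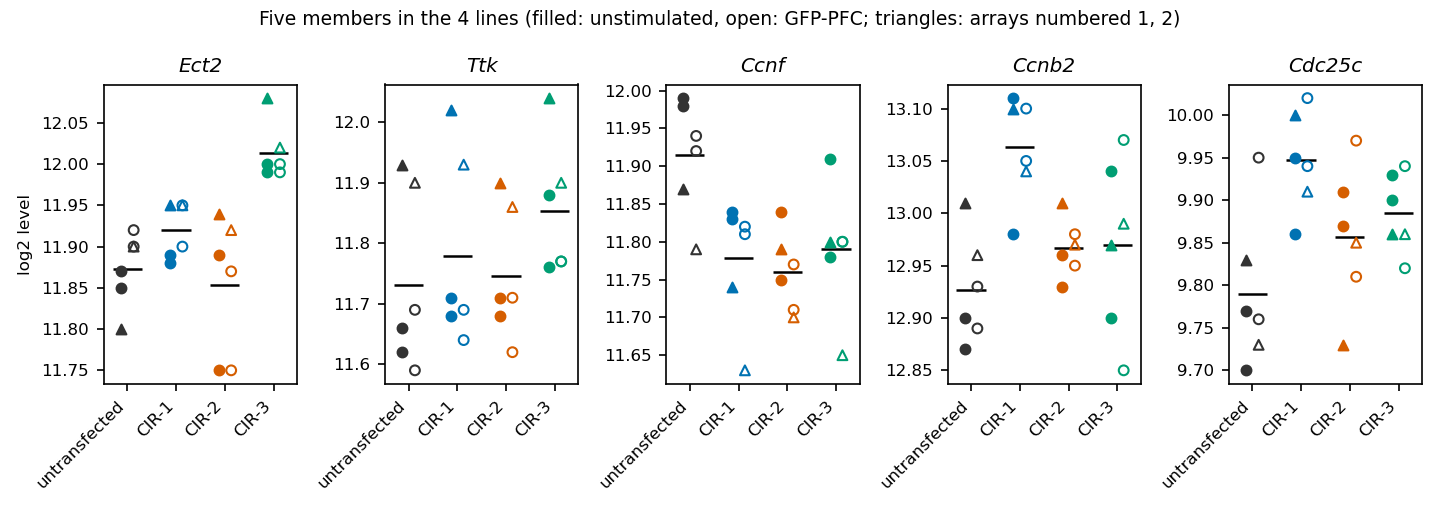
Log2 levels of Ect2, Ttk, Ccnf, Ccnb2 and Cdc25c (panels) on the 6 arrays of each line without Hyper-IL-6. Filled symbols are unstimulated arrays, open symbols GFP-PFC arrays, triangles the arrays numbered 1 and 2, and bars the line means. The 6 CIR-3 points of Ect2 lie above the 6 untransfected points, and the lines overlap for the other 4 genes in that comparison or in CIR-1.

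Of 34 DNA replication and G1/S genes, 4 were lower in the CIR-1 line (1.96% of all genes were lower), 5 in the CIR-2 line (1.37%) and 2 in the CIR-3 line (1.10%), and 0 were higher. Their median differences were −0.113, −0.153 and −0.131. Rrm2, the small subunit of ribonucleotide reductase, was lower by 0.26 (SE 0.047) in CIR-1 and by 0.23 (SE 0.047) in CIR-2. Chek1, the checkpoint kinase of replication stress and a gene of the other G2/M list, was lower by 0.25, 0.26 and 0.18 in the 3 lines (SE 0.05 each). Ccnd3, which encodes cyclin D3, was higher by 0.41, 0.46 and 0.40 (SE 0.11 each). Chek1 and Ccnd3 are single genes of their lists, whose counts by line are not given here, so they do not stand for those lists. Whether these lists differ from the members was not tested.

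Cell type markers also differed between the lines. Of 30 markers, 5 were higher and 4 lower in CIR-1, 5 and 3 in CIR-2, and 5 and 2 in CIR-3. Of all genes, 2.96% were higher and 1.96% lower in CIR-1, 2.43% and 1.37% in CIR-2, and 3.10% and 1.10% in CIR-3. Of the erythroid and megakaryocyte list 4 of 5 were higher in CIR-1 and in CIR-2, and 1, Epor, in CIR-3. The mean log2 level of that list ran from 8.88 to 8.95 over the untransfected arrays, from 9.25 to 9.31 for CIR-1, from 9.15 to 9.19 for CIR-2 and from 9.01 to 9.11 for CIR-3, with no overlap between untransfected cells and any CIR line. The mast cell and basophil list ran from 7.0 to 7.66 in untransfected cells and from 6.4 to 6.79 over the CIR lines, where Fcer1a, the alpha chain of the IgE receptor, differed by −4.16, −4.16 and −4.29 (SE 0.20 each). The myeloid list ran from 7.53 to 7.72 in untransfected cells and from 7.33 to 7.44 over CIR-1 and CIR-2, and in CIR-3 it overlapped untransfected cells (7.57 to 7.70). Mpo, the granule enzyme myeloperoxidase, differed by −1.55, −1.54 and 0.98 in the same order (SE 0.15 each). Of 9 pro-B markers 1, 1 and 2 were higher, and of 4 T cell markers 0 were called in any line. The part of these markers in the members' and the lists' line differences was not tested.

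The members differed with the array number. Over the 24 arrays without Hyper-IL-6, 27 of 35 members passed between the 8 arrays numbered 1 and 2 and the 16 later arrays, in a model with group and number pair (41.9% of all genes passed). Of these 23 were higher on the arrays numbered 1 and 2, against 17.0% of all genes, and 4 were lower, against 24.9%. All 35 members lie above the median gene, and of the 9968 genes there, fitted alone, 67.7% passed in either direction. The median member difference was 0.152 and that of all genes −0.037. After each array was centred on its own median, 27 members were higher and 0 lower (34.9% of all genes passed). For 12 members every array numbered 1 or 2 lay above every later array (3.47% of all genes), and for 17 the array numbered 1 or 2 was the highest of its group in 8 of 8 groups (7.80% of all genes). These shares were not taken for the genes above the median gene alone. The test among the 3 number pairs called 26 of 35 (39.1% of all genes, and 70.1% of the genes above the median gene, fitted alone). Of the 30 cell type markers 3 were higher and 6 lower on the arrays numbered 1 and 2, and their part in the members' difference was not tested.

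**Figure D3:**
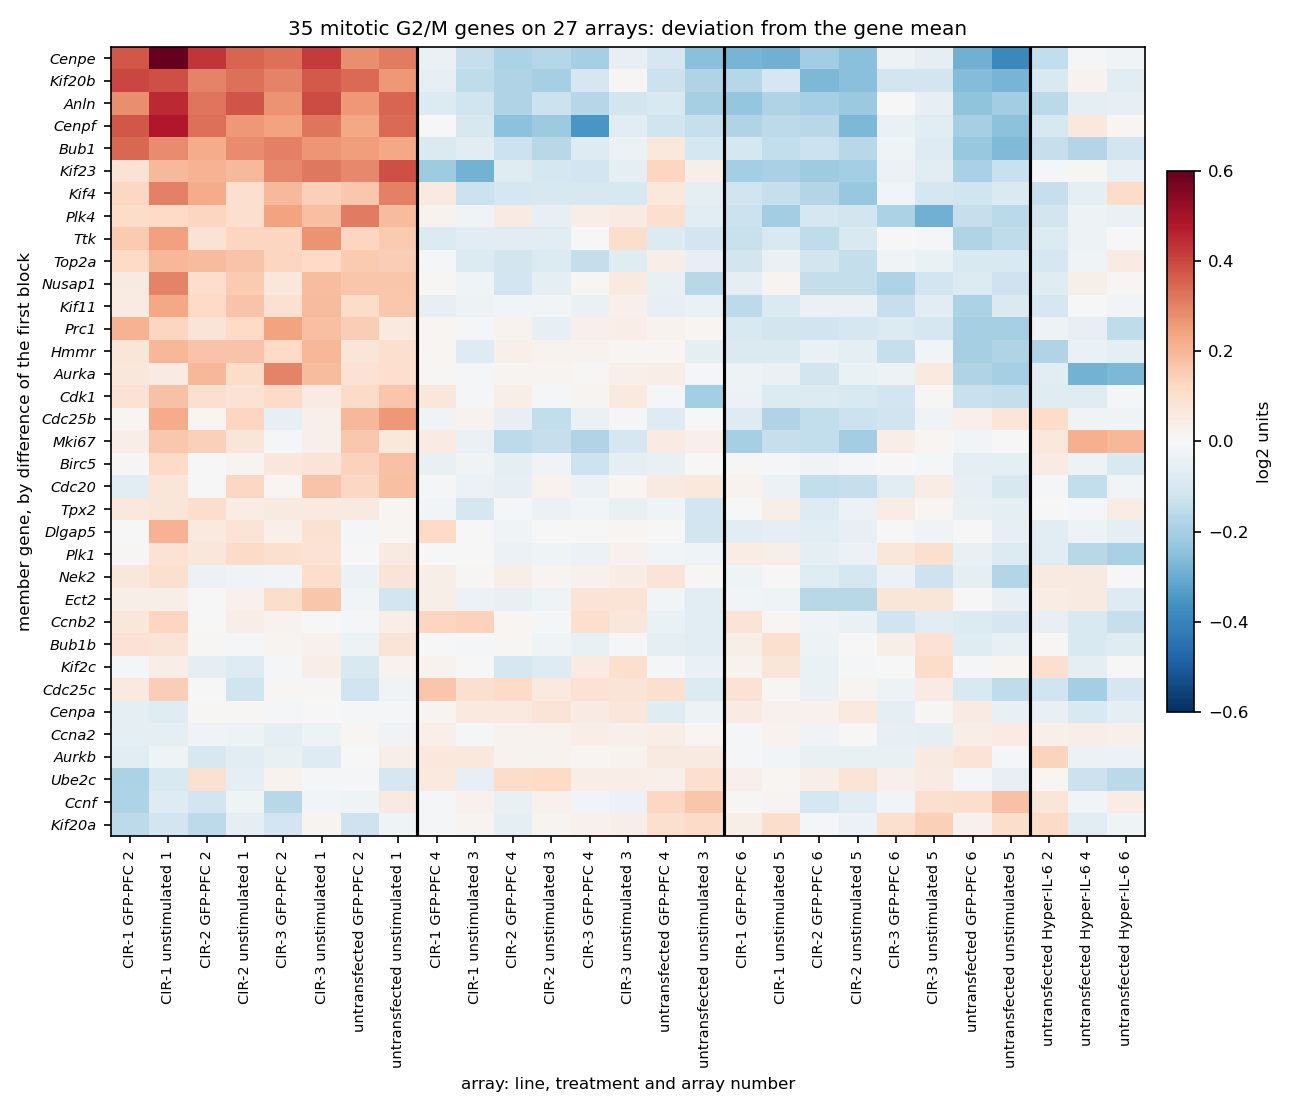
Deviation of each member (rows, ordered by the difference between arrays numbered 1 and 2 and later arrays) from its mean over the 27 arrays (columns), in log2 units, red above and blue below. Vertical lines part the arrays numbered 1 and 2, 3 and 4, and 5 and 6 and the 3 Hyper-IL-6 arrays: the top 5 rows are red on the 8 arrays of the leftmost block, and in these rows Hyper-IL-6 array 2 lies below 0.

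Counts by role follow, beside 17.0% of all genes higher and 24.9% lower in this comparison. Among the entry kinase and its controls, 2 of 6 measured members were higher and 1 was lower. Cdk1, the kinase of mitotic entry, lay between 11.79 and 11.92 (median 11.85) on the 8 arrays numbered 1 and 2 and between 11.54 and 11.81 (median 11.72) on the 16 later arrays. It was higher by 0.16 (SE 0.031, adjusted p = 0.000414) with slight overlap of the ranges, and Cdc25b, a phosphatase that starts entry, was also higher by 0.16 (SE 0.035, adjusted p = 0.00142). Ccnf was lower by 0.096 (SE 0.026, adjusted p = 0.00572). The cyclins Ccnb2 (0.039, SE 0.025) and Ccna2 (−0.044, SE 0.021) and Cdc25c (−0.034, SE 0.029) did not pass, at adjusted p of 0.217, 0.0979 and 0.36.

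Of the 7 mitotic kinases and exit factors, 4 were higher and 2 lower. Plk4 had the largest difference, 0.25 (SE 0.029, adjusted p = 1.47e-06), between 11.38 and 11.59 against 10.99 and 11.38, without overlap although both bounds round to 11.38. Aurka was higher by 0.17 (SE 0.03, adjusted p = 0.000136). Smaller rises were those of Cdc20 by 0.10 (SE 0.03) and Plk1 by 0.068 (SE 0.024), with adjusted p of 0.00975 and 0.0274, and ranges that overlap widely. Aurkb, the kinase of the chromosomal passenger complex, and Ube2c, the conjugating enzyme of the anaphase-promoting complex, were lower by 0.062 (SE 0.022) and 0.082 (SE 0.028), at adjusted p of 0.0287 and 0.0261. Nek2, which splits centrosomes, did not pass (0.051, adjusted p = 0.134).

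The checkpoint kinases Bub1 and Ttk were higher and Bub1b was not called. Bub1 lay between 11.81 and 11.93 on the arrays numbered 1 and 2 (median 11.86) and between 11.32 and 11.65 on later arrays (median 11.48), with no overlap (difference 0.38, SE 0.03, adjusted p = 7.37e-09). Ttk, also known as Mps1, was higher by 0.24 (SE 0.024, adjusted p = 1.96e-07) and highest in 8 of 8 groups. Bub1b differed by 0.037 (SE 0.023, adjusted p = 0.219).

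Of 6 centromere and chromosome genes 5 were higher. Cenpe had the largest difference of all members: it lay between 11.49 and 11.81 (median 11.57) on the arrays numbered 1 and 2 and between 10.82 and 11.18 (median 11.02) on later arrays. This is 0.57 (SE 0.04, 95% interval 0.485 to 0.652, adjusted p = 2.18e-09), or 1.48-fold. Cenpf, a large kinetochore protein, was 0.48 higher (SE 0.038, 10.95 to 11.20 against 10.37 to 10.72, adjusted p = 9.35e-09). Neither gene overlapped between the sets of arrays. Top2a, the topoisomerase that untangles sister chromatids, was 0.22 higher (SE 0.026, 12.76 to 12.84 against 12.50 to 12.68, adjusted p = 1.25e-06), also without overlap. Mki67 and Birc5, which encodes survivin, were higher by 0.15 (SE 0.038) and 0.11 (SE 0.025), at adjusted p of 0.00368 and 0.00194. Cenpa, the centromeric histone, differed by −0.040 (SE 0.024, adjusted p = 0.191).

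Of 8 spindle and motor genes 7 were higher. Kif20b led them, at 12.03 to 12.17 (median 12.10) against 11.49 to 11.78 (median 11.61), with no overlap (difference 0.50, SE 0.025, adjusted p = 4.48e-11). Kif4, which orders chromosome arms, was 0.28 higher (SE 0.033). Nusap1 and Hmmr, which bind spindle microtubules, were 0.22 (SE 0.029) and 0.19 (SE 0.025) higher, and Kif11, the motor that pushes spindle poles apart, 0.21 (SE 0.022, 12.54 to 12.72 against 12.30 to 12.52, adjusted p = 5.34e-07). Tpx2, the activator of Aurka, and Dlgap5, a spindle stabiliser, rose by 0.090 and 0.080, at adjusted p of 0.00414 and 0.0338. Kif2c, a motor that takes microtubules apart, did not pass (−0.025, SE 0.022, adjusted p = 0.379).

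Of the 5 midzone and cytokinesis genes 3 were higher and 1 lower. Anln, the scaffold of the contractile ring, lay between 11.87 and 12.06 against 11.37 and 11.61, with no overlap (difference 0.49, SE 0.032, adjusted p = 1.12e-09). Kif23 was 0.37 higher (SE 0.033, adjusted p = 5.7e-08) and Prc1, which bundles midzone microtubules, 0.20 higher (SE 0.023, adjusted p = 8.69e-07). Kif20a, a motor of the same midzone, was 0.14 lower (SE 0.025, adjusted p = 0.000199) and the lowest of its group in 8 of 8 groups. Its paralogue Kif20b thus moved the other way on the same arrays in this fit. The fall of Kif20a was not called after each array was centred on its median, and Kif20a could not be ordered along its transcript. Ect2 did not pass (0.045, SE 0.026, adjusted p = 0.165).

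The difference was present under either treatment. In fits to unstimulated arrays alone 21 members were higher and 0 lower (36.4% of all genes passed), and in fits to GFP-PFC arrays alone 16 were higher and 2 lower (20.5%). Cenpe was higher by 0.62 and 0.52 in these fits, Anln by 0.55 and 0.43 and Kif20b by 0.50 and 0.49. The later arrays also differed among themselves: 2 of 35 members, Plk4 by 0.18 (SE 0.034, adjusted p = 0.00651) and Prc1 by 0.13 (SE 0.027, adjusted p = 0.0115), were higher on arrays numbered 3 and 4 than on those numbered 5 and 6 (3.27% of all genes passed).

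Members varied together within groups. The mean correlation between 2 members of their deviations from the group means was 0.27 over the 24 arrays, against 0.186 for pairs of the 59 other G2/M genes, 0.218 for DNA replication and G1/S genes and 0.021 for all genes. Over the 16 later arrays alone it was 0.201 for members, 0.074 for the other G2/M genes, 0.503 for DNA replication and G1/S genes and 0.004 for all genes. All these pairs share the same arrays. Against the mean of the other members, Kif4 (r = 0.98), Cenpe and Kif23 (0.97 each) ran closest over the 24 arrays, and Kif20a (−0.82), Ccnf (−0.68) and Ccna2 (−0.59) ran against it.

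Other cell-cycle genes also moved with the number. Of all genes, 17.0% were higher and 24.9% lower in this comparison. Of the 59 other G2/M genes 33 were higher and 11 lower (median 0.12). Depdc1a was higher by 0.55 (SE 0.038), the motor gene Kif14 by 0.51 (SE 0.034), the condensin gene Ncapg by 0.50 (SE 0.026) and Kif18a by 0.43 (SE 0.033). Mybl2, which encodes B-MYB, was lower by 0.44 (SE 0.031, adjusted p = 2.51e-09), and Foxm1 did not pass (0.061, SE 0.028, adjusted p = 0.0943). Of 34 DNA replication and G1/S genes 12 were higher and 13 lower (median 0.019), and of 14 D cyclins and CDK inhibitors 4 were higher and 9 lower (median −0.095).

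Exon-level values of the same arrays showed where along the transcripts the difference lay. Core exon probe sets of a gene were put in order of their number and turned by the RefSeq strand of the gene, for genes with at least 6 probe sets and a known strand. That the numbers follow genome position is an assumption, but the difference rose with the number for 80.1% of plus-strand genes and for 19.7% of minus-strand genes. In 27 of 27 members that could be ordered, the difference between arrays numbered 1 and 2 and later arrays rose from the 5′ to the 3′ end, with a median Spearman rho of 0.83 across the probe sets of a gene. It rose in 79.9% of all 10335 genes, with a median rho of 0.45. Aurkb, Ccna2, Cdc25c, Cenpa, Dlgap5, Kif20a, Tpx2 and Ube2c could not be ordered. Of these, Aurkb, Kif20a and Ube2c were lower at gene level on the arrays numbered 1 and 2, Dlgap5 and Tpx2 higher. The others were not called. Means were also taken over the 1 in 3 probe sets nearest each end, called the 5′ part and the 3′ part. The members' median difference was 0 over the 5′ part and 0.375 over the 3′ part, and over all genes these were −0.114 and 0.05.

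Cenpe, with 46 exon probe sets, was 0.25 higher in its 5′ part and 0.88 higher in its 3′ part. For Kif20b these values were 0.31 and 0.75, for Anln 0.15 and 0.70 and for Bub1 0.21 and 0.66. In all 4 genes both parts were higher. Other members changed sign along the transcript: Mki67 stood at −0.19 in its 5′ part and 0.53 in its 3′ part, Ect2 at −0.18 and 0.34, and Ccnb2 at −0.25 and 0.27. Ccnf, lower at gene level, stood at −0.23 and 0.08. Cdk1, with the lowest rho of the 27 (0.15), stood at 0.08 and 0.11. In fits to the 5′ parts alone 8 of 27 members were higher and 8 lower (46.0% of all genes passed), and in fits to the 3′ parts 24 were higher and 0 lower (45.1%). Aurkb, Kif20a and Ube2c, lower at gene level, were not among the 27.

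**Figure D4:**
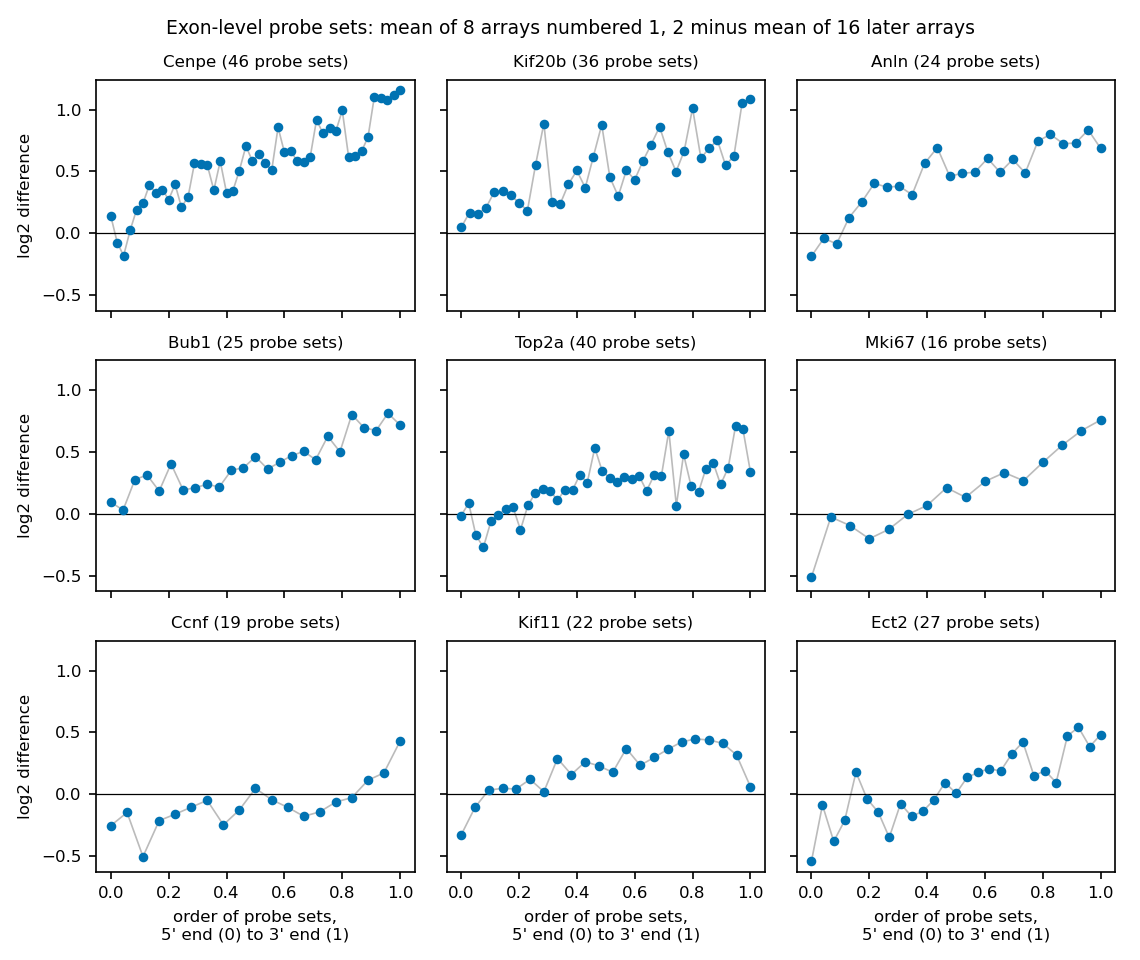
Difference between the mean of the 8 arrays numbered 1 and 2 and the mean of the 16 later arrays (y axis, log2) for each exon-level probe set of 9 members, in order from the 5′ end (0) to the 3′ end (1). In Cenpe it rose from 0.25 over the 5′ part to 0.88 over the 3′ part, and in Mki67 from −0.19 to 0.53.

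The same slope was seen over all genes, array by array. The mean of the 3′ part minus the 5′ part, centred over the 27 arrays, lay between 0.117 and 0.203 on the 8 arrays numbered 1 and 2, between −0.115 and −0.029 on the 16 later arrays, and between −0.092 and −0.039 on the 3 Hyper-IL-6 arrays. Members with more exon probe sets had larger gene-level differences (Spearman rho 0.57, Pearson r 0.63 across 35 genes, which share all arrays), while across 19058 genes rho was 0.03 and r 0.11. The labels give an RNA integrity number over 8 for all samples and no value per array. Beyond the fits to the parts, the part of this slope in the members' difference was not tested.

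**Figure D5:**
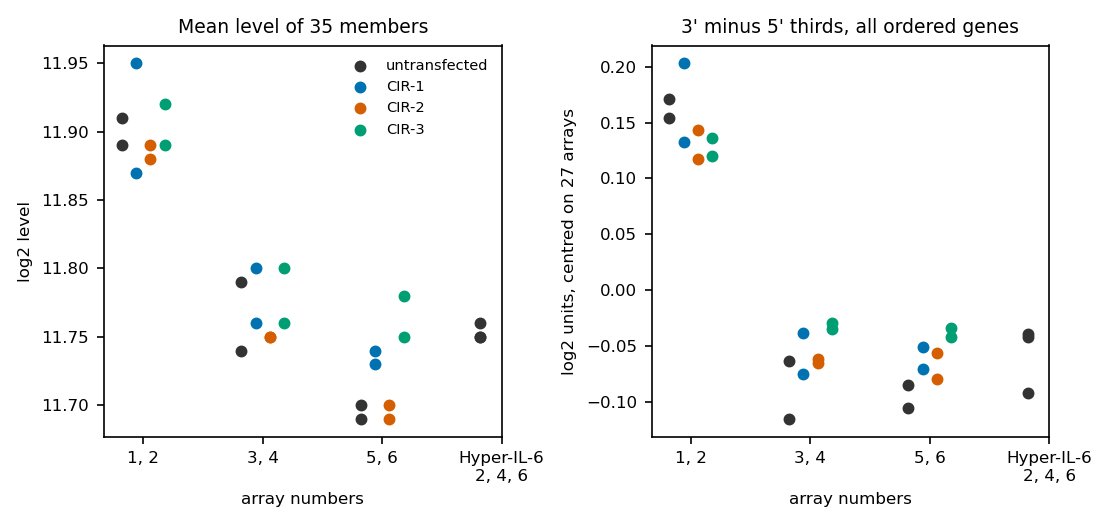
Left, mean log2 level of the 35 members on each of the 27 arrays by array number. Right, the 3′ minus 5′ part over 10335 genes on the same arrays. Colours mark the lines, and in both panels the 8 arrays numbered 1 and 2 lie above all later and all Hyper-IL-6 arrays (0.117 to 0.203 against −0.115 to −0.029 on the right).

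Array 2 of the Hyper-IL-6 group carries a number of the first pair. Cenpe read 11.06 on it and 11.20 and 11.19 on arrays 4 and 6, and Kif20b read 11.68 against 11.79 and 11.71. None of these values reached the lowest array numbered 1 or 2 of the other groups, at 11.49 for Cenpe and 12.03 for Kif20b. In limma 0 of 35 members differed between array 2 and arrays 4 and 6 (0.296% of all genes), and 4 had an unadjusted p under 0.05. That fit has 1 array on a side and takes its spread from all groups, and its 95% intervals reached from −0.374 to 0.386, so it says nothing about a difference as small as the median of 0.152 in the other groups. An interaction term, added because array 2 was seen to lie low, differed from 0 for 15 of 35 members (16.5% of all genes in either direction). Of these, 13 were lower in the Hyper-IL-6 group (7.66% of all genes were lower and 8.79% higher). The interaction term too rests on 1 array against 2 and describes these 3 arrays. For Hyper-IL-6 against unstimulated cells the exon-level difference rose from 5′ to 3′ in 1 of 27 members (median rho −0.59, medians of 0.038 in the 5′ part and −0.116 in the 3′ part) and in 35.1% of all genes. That comparison has 1 array with the high 3′ values, the unstimulated array numbered 1, and its part in the Hyper-IL-6 differences was not tested beyond the fit without the arrays numbered 1 and 2.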

How the data were processed

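RNA was measured on 27 Affymetrix arrays, each given at gene level and at exon level, which makes 54 samples. Per the labels, the authors made the values in Affymetrix Expression Console, as core-gene and as core-exon analyses, from 150 ng of amplified total RNA. The algorithm, version, normalization and genome build are not given in the sources used here. The deposited values were taken as log2 signals because they run from 2.97 to 14.9 at gene level and from 2.89 to 15.0 at exon level. With 3 arrays a group, array number limits how precise a value is.

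Of 35556 gene-level probe sets 21789 had 1 gene symbol, 1621 several and 12146 none. They gave 19936 genes, with the probe set of highest mean for the 1001 genes that had several. At exon level 212097 of 241576 probe sets had 1 symbol. Group means were fitted to all 27 arrays with limma 3.58.1 under R 4.3.3, and contrasts were called at a Benjamini-Hochberg adjusted p under 0.05 over all genes. Array numbers were compared on the 24 arrays without Hyper-IL-6, in a fit with group and number pair (1 and 2, 3 and 4, 5 and 6). These fits were run on simulated data with known differences. The simulated noise was independent for each gene and array, so the simulation does not cover arrays that vary together by number.

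The numbers were checked for pairing by correlating deviations from group means: same-numbered arrays of different lines correlated at 0.137 to 0.763 unstimulated and 0.211 to 0.615 with GFP-PFC in all 36 pairs, and consecutive numbers within a line at 0.282 to 0.633 in all 12. Hyper-IL-6 and GFP-PFC arrays of 1 number correlated at −0.214 to −0.092. The number pair entered as a replicate block in an alternative fit, whose values are given where they change a call.

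Members and gene lists were chosen with earlier results of these data known. Named members were those past the threshold, or otherwise the 5 of smallest p, and in every comparison Cdk1, Cdc20, Plk1, Aurka, Aurkb, Bub1, Cenpe, Kif11, Top2a, Mki67 and Ect2. Alternatives were the replicate block, exon-level values, quantile normalization, centring on array medians, a filter at the median gene, array weights, single probe sets, fits to fewer arrays and leaving out each array. The fit to single probe sets read the same probe set for each member as the main fit. The other Top2a probe set was therefore not checked. The fits to the 1 in 3 exon probe sets nearest each end and the block without Hyper-IL-6 arrays were chosen after seeing the data.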

Additional observations from a re-analysis of the deposited data

Results flagged for a closer look

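The difference between the array numbered 1 or 2 and the later arrays of a group was itself different in the Hyper-IL-6 group from that in the other 8 groups for 15 of 35 members (16.5% of all genes), by an interaction term in limma that was chosen after seeing the data. It was lower in the Hyper-IL-6 group for 13 members (7.66% of all genes were lower and 8.79% higher). The largest of these were Cenpe at −0.70, Cenpf at −0.61, Anln at −0.60, Kif20b at −0.56 and Kif4 at −0.45. Bub1 stood at −0.38, Kif23 at −0.36, Top2a at −0.34, Hmmr, Nusap1 and Plk4 at −0.32 each, Ttk at −0.31 and Kif11 at −0.30. It was higher for Kif20a at 0.30 and Aurkb at 0.23. Adjusted p values lay between 0.000112 and 0.023, and the Hyper-IL-6 side rests on 1 array against 2, so the values describe these arrays. The 3′ minus 5′ value of the Hyper-IL-6 arrays lay between −0.092 and −0.039, beside −0.115 to −0.029 on later arrays, and its part in the difference was not tested.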

How the results depend on the processing

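The Hyper-IL-6 and GFP-PFC counts of 0 members, and the 27 of 35 for the array numbers, were recomputed under the alternatives listed for each, which for the array numbers did not include array weights. Changes in count from or to 0, and the larger ones by ratio, were these, with shares of all genes in parentheses. Smaller changes of the number comparison are given above for each treatment alone, for the 3′ part and after centring. The replicate block gave 4 members for CIR-1 (8.30%), 1 for CIR-2 (6.67%) and 3 in the test among lines (13.5%), and without the Hyper-IL-6 arrays 4 (10.6%), 1 (8.76%), 3 for CIR-3 (11.6%) and 8 among lines (18.3%). The block, which follows the number pairing, changed no call for GFP-PFC. It changed none for Hyper-IL-6 either, but those arrays do not share the pairing, so the block is no check of that count. Array weights gave 1 for Hyper-IL-6 against unstimulated (17.4%), 4 for Hyper-IL-6 against GFP-PFC (9.68%), 2 for CIR-1 (8.67%), 1 for CIR-2 (9.52%), 3 for CIR-3 (21.3%) and 4 among lines (22.2%). Genes above the median gene alone gave 3 for CIR-1 (11.1%), 1 for CIR-2 (7.84%) and 2 among lines (15.8%), and exon-level values gave 1 for CIR-1 (4.33%). Quantile normalization gave 1 for CIR-1 (5.56%) and 0 for CIR-3 and among lines, and centring gave 1 for CIR-2 (2.80%). Without the arrays numbered 1 and 2 there were 2 for Hyper-IL-6 (18.4%), with a median of 0.035, 1 for CIR-2 (5.63%) and 2 for CIR-3 (20.9%). The compared arrays alone, unstimulated arrays alone and GFP-PFC arrays alone gave 0 for CIR-3, and the last 2 gave 0 among lines and 16 and 17 among the number pairs (25.3% and 17.4%). The 5′ and 3′ parts of the exon probe sets gave 0 for CIR-3 and among lines. The 5′ part gave 16 for the number comparison and 15 among number pairs, with medians of 0 there and 0.038 for Hyper-IL-6, and the 3′ part gave medians of 0.375 and, for Hyper-IL-6 against GFP-PFC, −0.134. Leaving out 1 array gave 0 to 2 for CIR-1, 0 to 1 for CIR-2, 0 to 0 for CIR-3, 0 to 1 among lines and 24 to 27 for both number tests. Number differences changed sign for Aurkb with centring (0.008) and, in the 5′ part, for Aurka (0, rounded), Birc5 (−0.238), Cdc25b (−0.154), Hmmr (−0.027), Kif11 (−0.024), Mki67 (−0.192), Plk1 (−0.126) and Prc1 (−0.026), and in the 3′ part for Ccnf (0.081). The fits to parts hold fewer genes, and the cause of the other changes was not tested. With 3 arrays a group, intervals for single members reached −0.49 and 0.54 in the Hyper-IL-6 comparison.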
